A study of Homo sapiens with 8 samples.

Results

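The ΔIDR and F158E mutants of PML/RARα were compared directly with each other over all genes. The comparison used 4 of the 8 RNA-seq libraries of the series, 2 for each mutant, chosen by their labels. All 8 libraries came from NB4, an established human line of acute promyelocytic leukemia that carries PML/RARα. In every group, controls included, lentivirus was used to knock down the fusion made by the cells themselves, and infection lasted 72 h. The F158E libraries came from cells given the HA-tagged F158E mutant of the fusion, and the ΔIDR libraries from cells given its HA-tagged ΔIDR mutant. The other 4 libraries, from cells given an empty vector or HA-tagged full-length PML/RARα, served to estimate the spread between replicates and to place the mutants' levels. Per the labels, neither mutant can phase separate. The series asks what phase separation of the fusion does to transcription. The labels give neither what ΔIDR removes, nor the promoter of the constructs, nor whether the cells were a clone or a pool. They do not state whether replicates were cultured separately, so a p-value here reflects only how much these libraries vary, possibly for technical reasons.

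PML is the scaffold of nuclear bodies, and RARα is a receptor for retinoic acid that switches genes on with its hormone and recruits corepressors without it. Their fusion holds myeloid cells at the promyelocyte, a stage at which the primary granule proteins are made. A neutrophil later adds other granule proteins, the subunits of the oxidase that makes superoxide, and surface receptors for bacterial products, complement and antibodies. Retinoic acid and arsenic, the drugs used against this leukemia, act on the fusion and let the cells mature.

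Gene counts summed to 21930353 and 21918365 in the F158E libraries and to 16779364 and 21965389 in the ΔIDR libraries. Levels below are in CPM, the counts of a gene adjusted for the size of its library, given for replicate 1 and then replicate 2. Changes are log2 fold changes of ΔIDR over F158E ± SE, with n = 2 libraries for each mutant, and positive values mean a higher level with ΔIDR. The SE was derived from the edgeR test, whose spread came from all 8 libraries. A gene is said to have risen or fallen only where edgeR gave an adjusted p under 0.05. Mitochondrial genes took 3.70% of the counts in each F158E library and 4.20% and 4.22% in the ΔIDR libraries. Promyelocyte genes that define the line were expressed with both mutants, among them MPO, the myeloperoxidase gene, at 4110 and 3995 CPM with F158E and 4108 and 4170 CPM with ΔIDR.

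The genes of the fusion itself differed widely. RARA (chromosome 17, 40309192 to 40357643 of GRCh38) was counted at 32.4 and 32.2 CPM with F158E and at 1351 and 1364 CPM with ΔIDR. That was a 42.0-fold difference, 5.39 ± 0.04 on the log2 scale, with an edgeR adjusted p of 2.67e-93. PML (chromosome 15, 73994673 to 74047812) stood at 65.8 and 66.1 CPM with F158E and at 445 and 440 CPM with ΔIDR, 6.71-fold higher. Empty vector cells had 24.1 and 22.1 CPM of RARA, and full-length PML/RARα cells had 78.3 and 75.6 CPM, so the ΔIDR libraries lay above all other libraries and the F158E libraries between those 2 groups. RXRA, the usual partner receptor of RARα, went the other way, from 184 and 174 CPM to 136 and 138 CPM (-0.39 ± 0.05). Of the neighbours of RARA on chromosome 17, CDC6 did not pass, at -0.01 ± 0.05, TOP2A fell by 0.09 ± 0.02 and IGFBP4 by 1.11 ± 0.06 on the log2 scale. Near PML, LOXL1-AS1 fell by 1.44 ± 0.39, and STOML1 did not pass (-0.61 ± 0.47). ENSG00000278918, an unconfirmed transcript model inside RARA, had a change of 3.04 ± 0.65. The libraries do not mark strand, so its reads cannot be told apart from those of RARA. These neighbours and this model were named after their values were seen.

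A count for PML or RARA sums the normal alleles, the fusion of the cells and the construct. The mutants therefore differed both in sequence and in how much RNA of these genes they had, and for every gene below these cannot be told apart. Of 37 genes for nuclear bodies and SUMO, the small modifier attached to PML, 4 rose (10.8%) and 8 fell (21.6%) with ΔIDR. Over all tested genes 9.17% rose and 9.37% fell, so the share of risers, PML included, was near that of all genes. Fewer of the list fell without F158E replicate 2 or ΔIDR replicate 2. Besides PML the risers included SP100, a nuclear body protein, at 0.38 ± 0.09, a gene named after its values were seen. SAE1, a subunit of the enzyme that activates SUMO, was among the fallers at -0.11 ± 0.02.

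**Figure D1:**
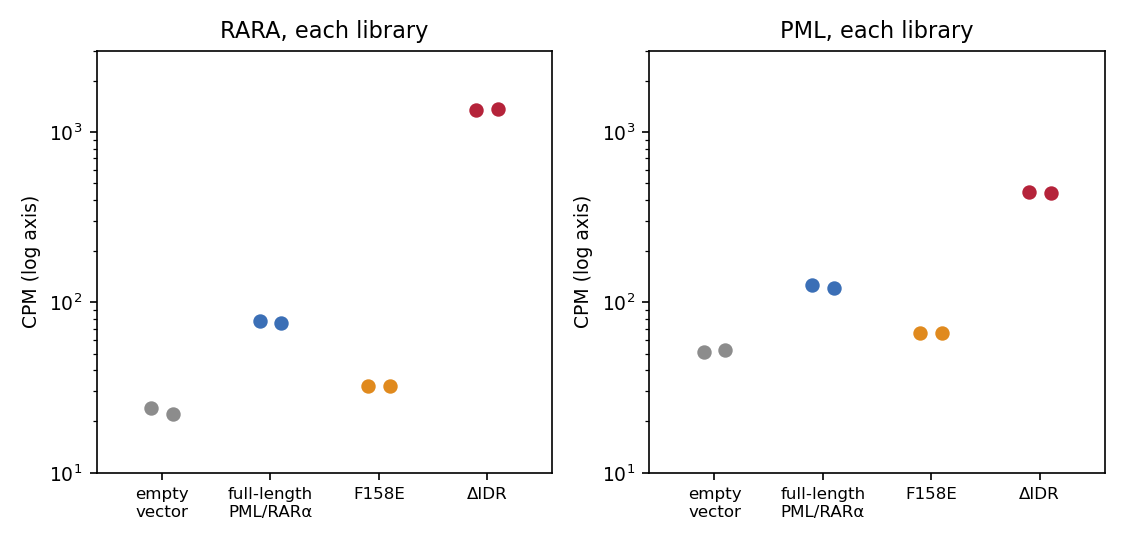
CPM of RARA and PML in each of the 8 libraries on a log axis, 1 point per library, by group. The ΔIDR libraries lie at 1351 and 1364 CPM for RARA and at 445 and 440 CPM for PML, above every other library, while the F158E libraries lie above empty vector and below the full-length fusion.

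Over all genes, 2592 of 13982 tested genes passed, 18.5%. ΔIDR was higher in 1282 of them (9.17% of tested genes) and lower in 1310 (9.37%). Most differences were small: 1847 of the called genes differed by less than 1.5-fold, and the median size of a called change was 0.33 on the log2 scale. The large ones were mostly rises. When tested for a change beyond 1.5-fold, 222 genes passed (1.59%), 154 higher (1.1%) and 68 lower with ΔIDR (0.486%). Among all called genes 86 rose at least 4-fold and 44 fell as far. With only protein-coding genes that averaged 3 log2 CPM or more in the mutants, these numbers were 10 and 0. The 10 include RARA and PML, whose counts contain the construct. In 141 of the 154 higher genes the ΔIDR libraries were the highest of all 8, while the F158E libraries were the lowest of all 8 in 32. In 59 of the 68 lower genes the ΔIDR libraries were the lowest of all 8, and the F158E libraries were the highest in 19. These positions are counts over genes already called between the mutants and were not tested.

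**Figure D2:**
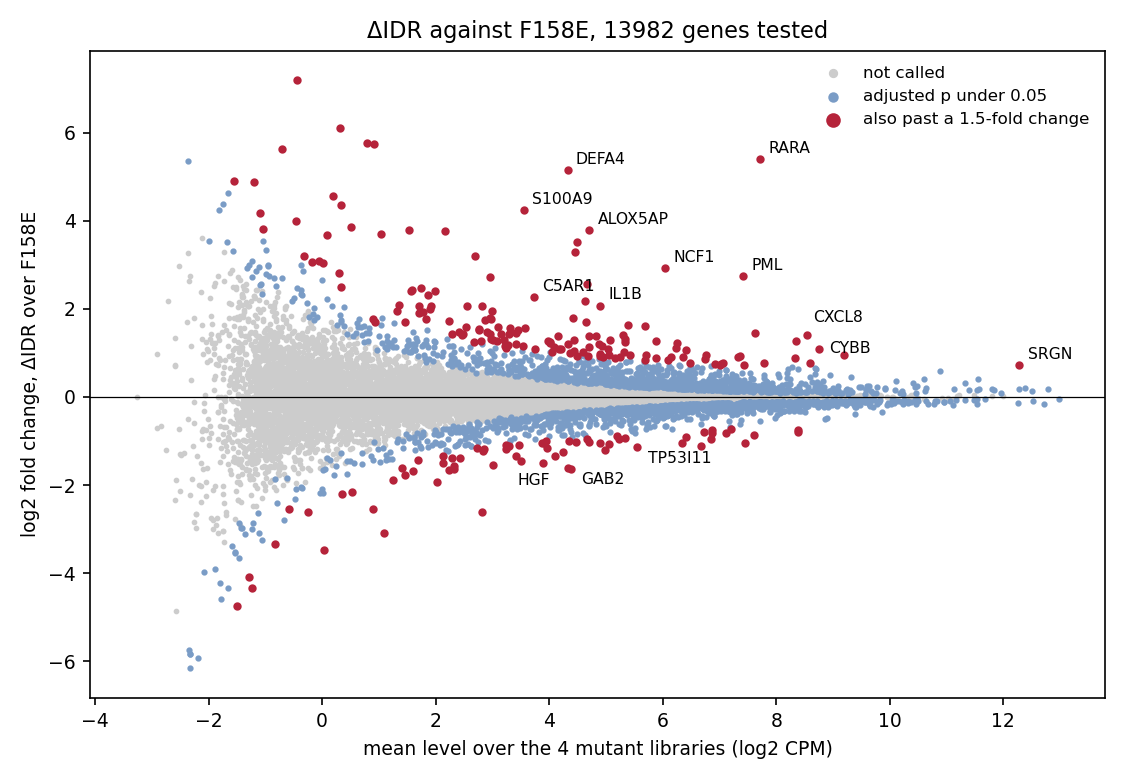
Log2 fold change of ΔIDR over F158E against the mean level over the 4 mutant libraries in log2 CPM, 1 point for each of the 13982 tested genes, in blue for an adjusted p under 0.05 and in red for genes also past a 1.5-fold change. The red points above 0 number 154 and those below 0 number 68, and the labelled rises reach 5.39 for RARA while GAB2 lies at -1.65.

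The share of genes called rose with level, from 4.89% in the lowest of 4 equal bins of tested genes to 35.3% in the highest, where the median size of a called change was 0.20. The lists of genes below are described by their counts, shares and medians. Each is to be read beside all tested genes, of which 9.17% rose and 9.37% fell, with a median change of -0.01. A gene could be tested because it was expressed in the ΔIDR libraries alone, so the counts cover tested members and are not a test of the list.

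Genes for defensins and for calprotectin were among those that rose most. DEFA4, a defensin that kills bacteria (chromosome 8, 6935822 to 6938338), was at 3.20 and 3.43 CPM with F158E and at 118 and 116 CPM with ΔIDR. Both ΔIDR libraries lay far above all others, among which the highest was an empty vector library at 4.26 CPM. DEFA4 changed by 5.14 ± 0.13, with an edgeR adjusted p of 1.28e-51. S100A9, a subunit of calprotectin, the calcium- and metal-binding protein of neutrophil cytosol (chromosome 1, 153357854 to 153361027), went from 2.15 and 3.20 CPM to 48.9 and 52.0 CPM (4.24 ± 0.17). Its partner subunit S100A8 had 9 counts over both F158E libraries and 432 over both ΔIDR libraries (5.74 ± 0.44). DEFA3, another defensin with near-identical copies in the genome, at 0.183 and 0.183 CPM against 10.1 and 10.4 CPM, and the bactericidal protein gene BPI, at 0.365 and 0.685 CPM against 7.06 and 6.68 CPM, were named after their values were seen.

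Of 18 tested genes in this group of defensins, calprotectin and the lactoferrin-type granules, 8 rose (44.4%) and 1 fell (5.56%). Their median was 0.93. The rises did not extend through the group. LTF and LCN2, whose products define the specific granules of more mature cells, had at most 1 count in any library, and MMP8, OLFM4 and CRISP3 were at 0 counts in all 8. MMP9, the gelatinase B gene, did not pass, at 180 and 172 CPM with F158E and 169 and 170 CPM with ΔIDR (-0.06 ± 0.04). STOM, a membrane protein gene, was the member that fell (-0.18 ± 0.05), and its call was lost without F158E replicate 2 or ΔIDR replicate 2.

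The genes of the phagocyte oxidase rose together. NCF1, its p47 subunit (chromosome 7, 74773962 to 74789315), stood at 25.2 and 22.3 CPM with F158E and 184 and 178 CPM with ΔIDR, a change of 2.93 ± 0.08. CYBB, the membrane subunit that carries electrons to oxygen (chromosome X, 37780011 to 37813461), went from 288 and 300 CPM to 637 and 620 CPM (1.10 ± 0.03). Other subunits were named after their values were seen: RAC2 rose by 0.75 ± 0.05, NCF4 by 0.68 ± 0.10 and CYBA by 0.58 ± 0.05. For each of these 5 genes both ΔIDR libraries lay above both F158E libraries, and above both empty vector libraries as well. NCF1 has near-identical copies, NCF1B and NCF1C, which changed by 3.30 ± 0.13 and 3.51 ± 0.13, so its counts may include reads of theirs or lose reads to them.

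In all, 27 of 38 tested genes for surface receptors and signalling of mature neutrophils rose (71.1%) and 1 fell (2.63%). These compare with 9.17% and 9.37% of all tested genes, and the median of the list was 0.70. ALOX5AP, which hands arachidonic acid to the enzyme that starts leukotriene synthesis, rose from 6.30 and 7.68 CPM to 97.8 and 94.5 CPM (3.78 ± 0.12). The receptor of complement fragment C5a, C5AR1, rose from 6.30 and 5.71 CPM to 26.2 and 31.4 CPM (2.26 ± 0.15). Among genes named after their values were seen, FGR, a Src-family kinase of myeloid cells, rose by 3.19 ± 0.24, PADI4, the enzyme that citrullinates histones, by 3.78 ± 0.35, and FCAR, the receptor for immunoglobulin A, by 2.40 ± 0.32. The integrin subunit ITGAM, a classic marker of granulocyte maturation, changed far less, from 20.1 and 20.1 CPM to 23.1 and 27.6 CPM (0.34 ± 0.12, edgeR adjusted p = 0.0346), and lost its call with DESeq2, without the filter on low counts, and without F158E replicate 1, F158E replicate 2 or ΔIDR replicate 2. CSF3R, the receptor for G-CSF, did not pass (0.19 ± 0.14). CD44, an adhesion receptor, was the member that fell (-0.66 ± 0.12), and 2 fell without ΔIDR replicate 2. In these bulk libraries more cells with a transcript and more of it per cell cannot be told apart.

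Primary granule genes, which a promyelocyte already makes, split. Of 26 tested, 13 rose (50%) and 5 fell (19.2%), with a median of 0.20. The largest rise of the list was that of BPI, given above, at 3.69 ± 0.46. SRGN, the proteoglycan that packs granule proteases, rose in level from 3848 and 3880 CPM to 6444 and 6362 CPM (0.73 ± 0.01). PRTN3, proteinase 3, rose from 243 and 231 CPM to 433 and 440 CPM (0.88 ± 0.04). SERPINB1, an inhibitor of the granule proteases, rose by 1.80 ± 0.14. CTSG, cathepsin G, fell from 32.3 and 31.8 CPM to 20.4 and 21.1 CPM (-0.63 ± 0.12), and the lysozyme gene LYZ fell by 0.33 ± 0.09 on the log2 scale. MPO, with a change of 0.03 ± 0.02, did not pass with edgeR, although limma voom called it at a log2 change of 0.03 and leaving out F158E replicate 1 at 0.06. ELANE, the neutrophil elastase gene, had at most 2 counts in a library and was not tested. Without a single replicate the fallers numbered 2 or 3 instead of 5.

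Promoter sequence was read for the tested genes. RefSeq promoters on GRCh38.p14, 250 bases before to 50 after a gene's start, were matched by symbol for 10045 of 13978 tested symbols. The core of the site bound by PU.1, the myeloid factor encoded by SPI1, was searched as GAGGAAGT on both strands. It was held by 14 of 110 matched promoters among the genes higher past 1.5-fold (12.7%), by 1 of 43 among those lower (2.33%), and by 2.74% of all matched promoters. In the mature neutrophil list it was held by 3 of 27 matched promoters (11.1%), and the promoter of CYBB had no match. Over all called genes, this core was held by 5.36% of the promoters of those that rose and 2.84% of those that fell. The C/EBP core TTGCNNAA was held by 15.5% of the promoters of genes higher past 1.5-fold, 9.30% of those lower and 7.08% of all. Over all called genes its share was 6.55% for those that rose and 7.18% for those that fell, both near that of all promoters. A match is a description of the letters and not evidence of binding. The 250 bases before the start are shown for 3 genes described above, all of which hold a match. Each match to GAGGAAGT or its reverse complement is in capitals. All 3 sequences are on the plus strand: chr13:30713235-30713484, chr7:74773761-74774010 and chr19:840749-840998.
ALOX5AP: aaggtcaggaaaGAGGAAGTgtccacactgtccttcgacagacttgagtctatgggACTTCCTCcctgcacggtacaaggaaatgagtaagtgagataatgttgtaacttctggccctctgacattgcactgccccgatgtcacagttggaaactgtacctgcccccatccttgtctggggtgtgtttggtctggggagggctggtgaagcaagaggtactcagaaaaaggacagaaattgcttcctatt
NCF1: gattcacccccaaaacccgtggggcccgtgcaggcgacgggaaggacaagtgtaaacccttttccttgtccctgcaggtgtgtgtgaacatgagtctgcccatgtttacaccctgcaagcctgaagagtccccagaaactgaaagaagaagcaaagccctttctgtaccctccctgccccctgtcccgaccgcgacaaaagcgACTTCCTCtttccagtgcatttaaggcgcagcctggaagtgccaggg
PRTN3: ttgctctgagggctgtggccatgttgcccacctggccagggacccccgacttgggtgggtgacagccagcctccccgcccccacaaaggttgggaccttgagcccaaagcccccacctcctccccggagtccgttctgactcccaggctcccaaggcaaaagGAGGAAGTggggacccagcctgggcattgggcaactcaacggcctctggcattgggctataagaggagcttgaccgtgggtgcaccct
The matches began 238 and 194 bases before the start in ALOX5AP, 47 before it in NCF1 and 88 before it in PRTN3. NCF1 also held a match to the interferon motif given below, and PRTN3 one to TTGCNNAA, neither in capitals.

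Eosinophil granule genes were higher with ΔIDR as well. EPX, eosinophil peroxidase (chromosome 17, 58192737 to 58205174), was at 209 and 211 CPM with F158E and 510 and 502 CPM with ΔIDR (1.27 ± 0.04). Empty vector cells had 108 and 106 CPM and full-length cells 94.2 and 89.6 CPM, so both mutants lay above these groups and ΔIDR highest. PRG2, eosinophil major basic protein, went from 299 and 291 CPM to 503 and 505 CPM (0.77 ± 0.03). CLC, the galectin that forms Charcot-Leyden crystals, had 5 counts in the F158E libraries together, all in replicate 1, and 317 in the ΔIDR libraries (6.09 ± 0.60). Its call was lost with DESeq2, at an adjusted p = 0.184 by the Wald test. HDC, which makes histamine in basophils and mast cells, fell from 562 and 536 CPM to 391 and 384 CPM (-0.50 ± 0.03).

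The list of 17 tested eosinophil, basophil and mast cell genes had 11 that rose (64.7%) and 1 that fell (5.88%). The median of the list was 0.82. Its summed level was 1446 to 1472 CPM with F158E and 1933 to 1965 CPM with ΔIDR. Of its defining genes FCER1A, a chain of the IgE receptor, was at 0 counts in every library, and KIT had at most 1 count. Among the risers GATA1, a factor of the eosinophil, mast cell and red cell lineages, went from 5.07 and 6.85 CPM to 17.2 and 14.8 CPM (1.42 ± 0.23), a gene named after its values were seen.

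Markers of other cell types moved less evenly. Of 20 tested monocyte and macrophage genes 6 rose (30%) and 3 fell (15%), with a median of 0.18. Their summed level was 459.6 to 474 CPM with F158E and 582 to 583.5 CPM with ΔIDR. CTSD, a lysosomal protease, rose by 1.23 ± 0.07. CD14, the endotoxin coreceptor, had 14 and 19 counts per mutant and did not pass, and C1QB was at 0 counts in every library. The 3 falls of the list, LYZ among them, were all lost without F158E replicate 2 or ΔIDR replicate 1. Lymphoid markers summed to 296 CPM in each F158E library and 401 to 404 CPM with ΔIDR, where 2 of 8 rose, CD4 and NKG7. Both are also expressed by myeloid cells, and MS4A1 and VPREB1 were at 0 counts in every library. Erythroid and megakaryocyte markers summed to 9.27 to 11.1 CPM and 18.2 to 20.9 CPM, with 1 of 5 risen, and 10 of 23 were at 0 counts in every library. Epithelial and fibroblast markers summed to 12.9 to 18.3 CPM and 11.5 to 13.7 CPM, with 0 of 7 passing by edgeR, by DESeq2, by limma voom or at an unadjusted p under 0.05. The part of these markers in the neutrophil gene results was not tested.

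**Figure D3:**
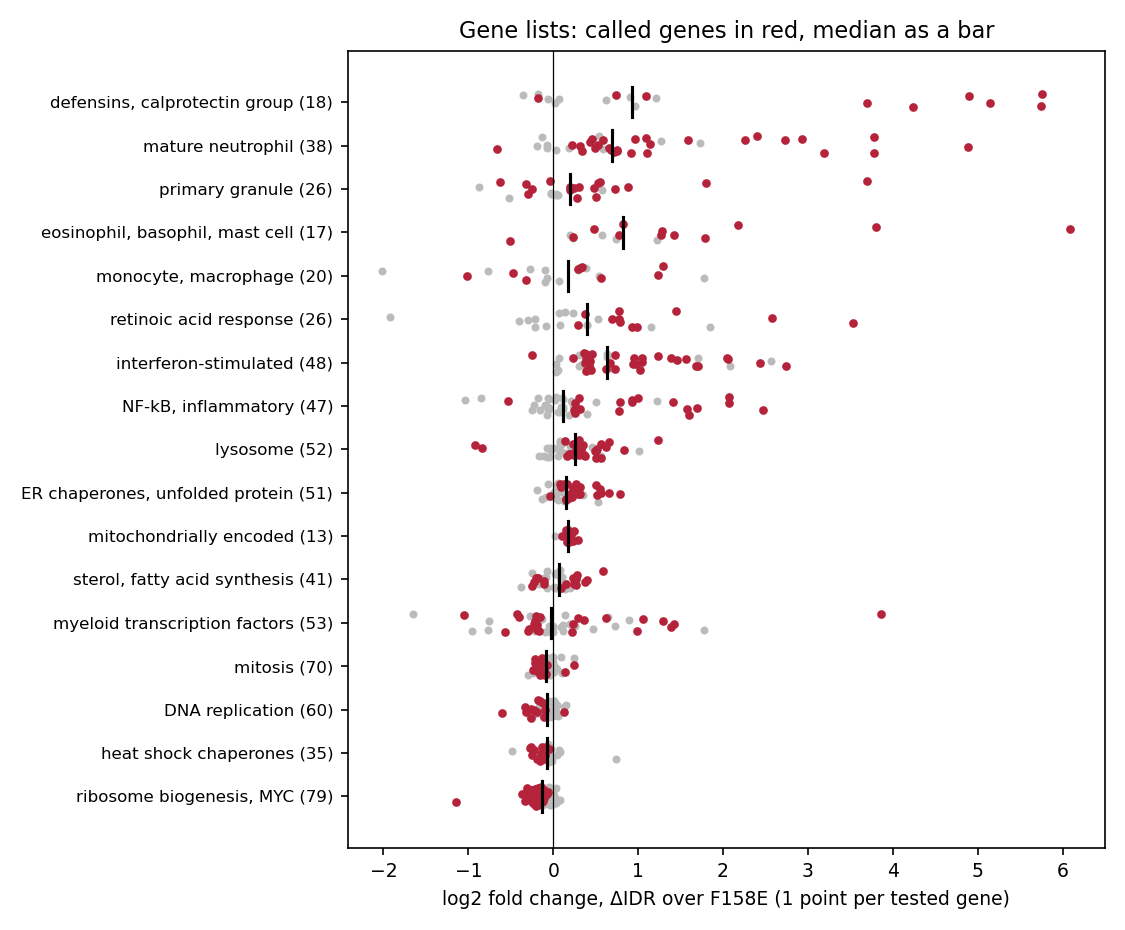
Log2 fold change of ΔIDR over F158E for each tested member of 17 gene lists, 1 point per gene, in red for an adjusted p under 0.05, with the list's median as a black bar and the number of tested members in brackets. The defensin, eosinophil and mature neutrophil lists have medians of 0.93, 0.82 and 0.70, and the ribosome biogenesis list has the lowest, -0.14.

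Genes of the retinoic acid response and of retinoid metabolism rose in 11 of 26 tested cases (42.3%) and fell in 0, with a median of 0.40. Over all tested genes 9.17% rose and 9.37% fell. ICAM1 and TNFAIP2, among the risers, are also counted in the NF-kB list below. DESeq2 and limma voom also called 0 falls, and 2 genes fell at an unadjusted p under 0.05. PRAM1, an adaptor protein gene known as a target of PML/RARα, went from 10.8 and 10.0 CPM to 58.1 and 65.5 CPM (2.57 ± 0.12), and both ΔIDR libraries lay above all 6 others. The ectoenzyme gene CD38 rose from 118 and 117 CPM to 156 and 151 CPM (0.38 ± 0.05), and TNFAIP2 by 0.78 ± 0.06. ASB2, a ubiquitin ligase subunit gene, rose by 1.44 ± 0.19 and was named after its values were seen. The classic targets CYP26A1, RARB and TGM2 had at most 5 counts in any library and were not tested.

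Interferon-stimulated genes, which cells switch on against viruses, rose in 32 of 48 tested cases (66.7%) and fell in 1 (2.08%). Their median was 0.63. IFIT3, an antiviral protein gene, was at 33.7 and 41.3 CPM with F158E and 73.3 and 71.1 CPM with ΔIDR (0.95 ± 0.09). IFIT2 went from 30.4 and 31.3 CPM to 63.6 and 56.1 CPM (0.95 ± 0.10), and BST2, which tethers budding virus, from 65.0 and 56.6 CPM to 98.2 and 103 CPM (0.73 ± 0.07). For IFIT2 and IFIT3 the F158E libraries lay near the empty vector libraries, at 28.9 and 29.5 CPM and at 39.3 and 42.8 CPM, and full-length cells had under 10 CPM of each. The faller was IFITM2, a restriction factor gene, at -0.25 ± 0.07, and its call was lost without F158E replicate 1 or ΔIDR replicate 2. The core of the interferon-stimulated response element, TTTC, any 2 bases and TTTC on either strand, was held by 21 of 37 matched promoters of the tested list (56.8%), by 15 of 27 of the risers (55.6%) and by 2.83% of all matched promoters. The 250 bases before the start of IFIT3, chr10:89327747-89327996 on the plus strand, show 2 matches in capitals, starting 156 and 122 bases before the start.
IFIT3: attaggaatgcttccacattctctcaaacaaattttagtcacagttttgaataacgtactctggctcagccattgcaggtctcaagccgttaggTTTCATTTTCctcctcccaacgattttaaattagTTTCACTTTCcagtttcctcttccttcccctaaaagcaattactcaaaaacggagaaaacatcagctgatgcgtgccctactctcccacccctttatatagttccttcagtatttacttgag

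Of 15 tested antigen presentation genes 8 rose (53.3%) and 1 fell (6.67%), but fewer rose without F158E replicate 1 or F158E replicate 2. B2M, the light chain of class I, went from 1034 and 1028 CPM to 1162 and 1123 CPM (0.15 ± 0.02), and HLA-E, a nonclassical heavy chain, rose by 0.30 ± 0.07. TAP2, a subunit of the peptide transporter, rose by 1.39 ± 0.50 at a low level, and its partner TAP1 did not pass (0.06 ± 0.19); both were named after their values were seen. NLRC5, an activator of class I genes, fell by 0.20 ± 0.07 on the log2 scale and lost its call in 8 of 12 alternatives. Among 41 proteasome genes 4 rose (9.76%) and 2 fell (4.88%), against 9.17% and 9.37% of all tested genes. The share of risers was thus near that of all genes, and nothing is read from which members rose. The risers were PSMB8 at 0.45 ± 0.09, PSME2 at 0.42 ± 0.07, PSME1 at 0.22 ± 0.06 and PSMB10 at 0.48 ± 0.15, known as parts of the interferon-induced proteasome and its activator. PSMB9, of the same form, did not pass (0.63 ± 0.34), and PSME1 lost its call without F158E replicate 1 or ΔIDR replicate 1. The fallers were PSMD11 (-0.18 ± 0.04), which lost its call without ΔIDR replicate 2, and PSME4 (-0.13 ± 0.04). PSMB9, PSMB10 and PSME4 were named after their values were seen.

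Of 47 tested NF-kB and inflammatory genes 17 rose (36.2%) and 1 fell (2.13%), with a median of 0.12. CXCL8, the chemokine that attracts neutrophils (chromosome 4, 73740506 to 73743716), stood at 233 and 226 CPM with F158E and 618 and 599 CPM with ΔIDR (1.41 ± 0.03). The cytokine gene IL1B went from 13.6 and 15.3 CPM to 60.2 and 61.1 CPM (2.07 ± 0.11), and CCL2, which attracts monocytes, from 30.5 and 28.5 CPM to 89.7 and 89.1 CPM (1.60 ± 0.09). For all 3 the ΔIDR libraries also lay above the empty vector libraries, and the F158E libraries lay between empty vector and full-length cells. The adhesion receptor gene ICAM1 rose by 0.93 ± 0.05. TNFSF13B, a B cell survival factor gene that is not in this list, rose by 1.70 ± 0.12. TNFAIP3, a brake on NF-kB, did not pass, at 109 and 107 CPM against 95.0 and 106 CPM (-0.10 ± 0.06). NFKBIA, another brake, rose by 0.31 ± 0.06 and was named after its values were seen. Several cytokine genes of the list did not pass, among them TNF (0.11 ± 0.14), CCL20 (0.06 ± 0.20) and IL1RN (-1.04 ± 0.40), named after their values were seen. The faller was PLAUR, the urokinase receptor (-0.54 ± 0.12), and 2 fell without F158E replicate 2 or ΔIDR replicate 1.

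Lysosome genes rose in 27 of 52 tested cases (51.9%) and fell in 2 (3.85%), with a median of 0.25. CTSD, cathepsin D, went from 50.6 and 48.2 CPM to 116 and 116 CPM, and PSAP, the precursor of the saposins that help degrade sphingolipids, from 332 and 324 CPM to 535 and 502 CPM (0.66 ± 0.03). The protease gene CTSZ rose by 0.83 ± 0.08, whereas another protease gene, CTSH, fell from 118 and 115 CPM to 59.6 and 63.2 CPM (-0.92 ± 0.06). Endoplasmic reticulum chaperones and unfolded protein response genes rose in 23 of 51 cases (45.1%) and fell in 1 (1.96%), by a median of 0.15. HSPA5, the main chaperone there, went from 2272 and 2336 CPM to 2874 and 2856 CPM (0.31 ± 0.02), HSP90B1 rose by 0.18 ± 0.02 and CREB3L2, a membrane-bound transcription factor of secretory cells, by 0.66 ± 0.06. The faller, CALR, moved by -0.04 ± 0.01 and lost its call without any one of the 4 mutant libraries. Sterol and fatty acid synthesis genes had 10 that rose (24.4%) and 7 that fell (17.1%) among 41, with a median of 0.06. Fewer rose and fewer fell without F158E replicate 1. HMGCS1, an early enzyme of the pathway, did not pass (-0.08 ± 0.04).

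Transcription factors of myeloid cells moved both ways, 11 up (20.8%) and 13 down (24.5%) among 53 tested, with a median of -0.02. CEBPB, a C/EBP factor of emergency granulopoiesis and macrophages, rose from 16.3 and 15.8 CPM to 42.5 and 41.4 CPM (1.39 ± 0.12). CEBPE, needed for late granules, changed from 66.5 and 64.7 CPM to 80.8 and 80.4 CPM (0.30 ± 0.07), and SPI1, which encodes PU.1, from 125 and 126 CPM to 158.4 and 164 CPM (0.36 ± 0.05). CEBPA, the factor that commits cells to the granulocyte line, did not pass, at 97.3 and 89.6 CPM against 93.8 and 88.3 CPM (-0.04 ± 0.06). The immediate-early factor FOS rose by 1.30 ± 0.17, and EGR1, another, did not pass (0.20 ± 0.20). RUNX3, a RUNT factor, fell from 43.6 and 41.8 CPM to 21.7 and 19.7 CPM (-1.05 ± 0.10), and STAT5A, which carries cytokine signals, by 0.57 ± 0.08. GFI1, a repressor in granulocyte precursors, fell by 0.20 ± 0.05 and lost its call without F158E replicate 2. For CEBPB, CEBPE and SPI1 both ΔIDR libraries exceeded all 6 other libraries.

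**Figure D4:**
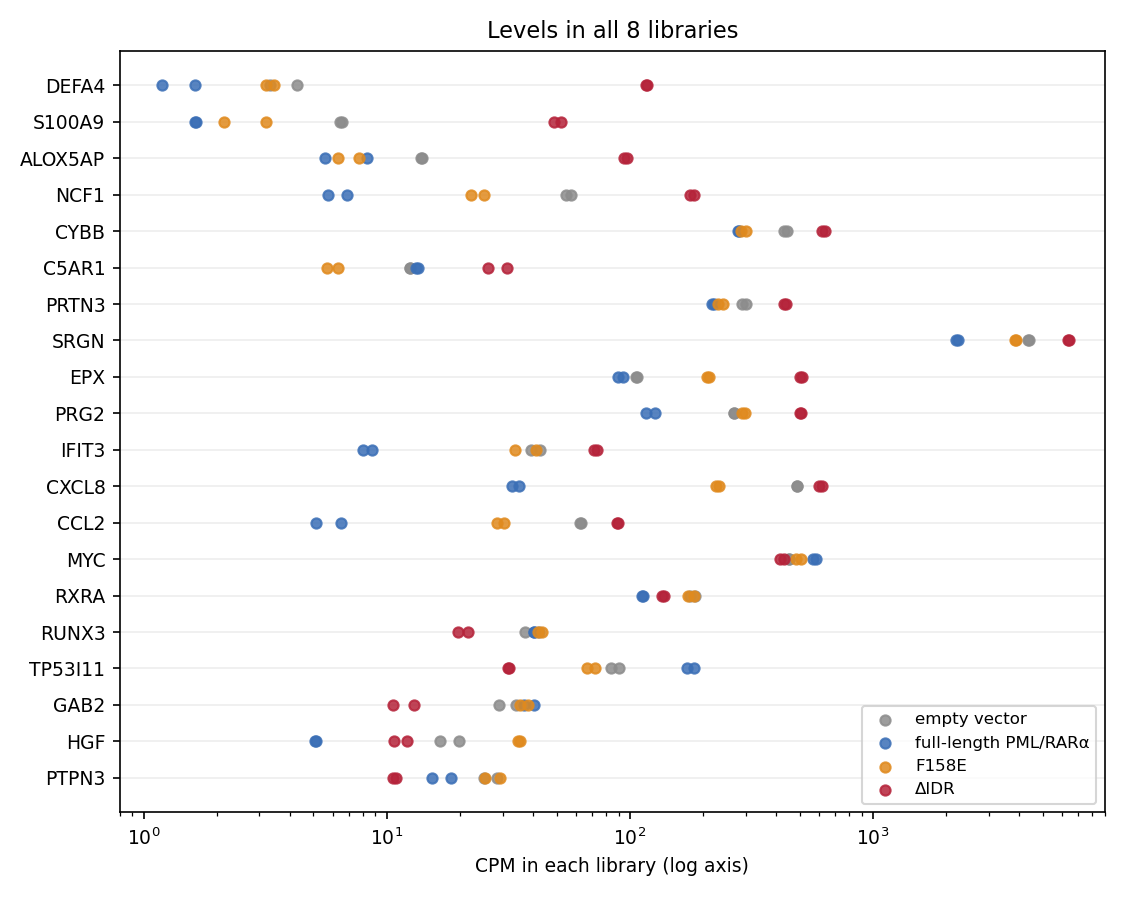
CPM of 20 genes in each of the 8 libraries on a log axis, 1 point per library, coloured by group. From DEFA4 to CCL2 the ΔIDR points lie to the right of all others. From RUNX3 to PTPN3 they lie to the left of the F158E points.

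Of 79 genes for ribosome biogenesis or driven by MYC, 45 fell (57%), with a median of -0.14. By edgeR, DESeq2, limma voom or at an unadjusted p under 0.05, 0 rose. MYC itself went from 507 and 483 CPM to 417 and 430 CPM (-0.23 ± 0.03). The nucleolar helicase gene DDX21 went from 1476 and 1498 CPM to 1338 and 1312 CPM (-0.17 ± 0.02), and PAICS, an enzyme of purine synthesis, fell by 0.20 ± 0.02. For these 3 genes full-length cells had the highest levels of the 4 groups, and for MYC both ΔIDR libraries lay below all 6 others. In this list 28 genes fell without ΔIDR replicate 2. The E-box CACGTG, the site of MYC, was held by 24 of 66 matched promoters of this list (36.4%), by 13.6% of those of all genes that fell, by 9.13% of those that rose and by 10.3% of all. Among genes past 1.5-fold the shares were 6.98% for those lower and 6.36% for those higher. The largest fall of the list was that of TERT, the telomerase reverse transcriptase gene, at -1.14 ± 0.30, named after its values were seen. Of 79 cytosolic ribosomal protein genes 21 fell (26.6%) and 2 rose (2.53%). Fewer of them fell without F158E replicate 1, F158E replicate 2 or ΔIDR replicate 1. RPL4, one of the larger falls, went from 1846 and 1857 CPM to 1667 and 1656 CPM (-0.16 ± 0.02).

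Of 60 DNA replication genes 12 fell (20%) and 1 rose (1.67%), and of 70 mitosis genes 17 fell (24.3%) and 2 rose (2.86%). The medians were -0.07 and -0.08. MCM3, a subunit of the replicative helicase, went from 353 and 351 CPM to 286 and 301 CPM (-0.26 ± 0.03), and SMC2, a condensin subunit, fell by 0.22 ± 0.05. The mitosis falls numbered 6 to 9 when any one mutant library was left out. Cytosolic and mitochondrial heat shock chaperones fell in 15 of 35 cases (42.9%) and rose in 0, by a median of -0.07. DESeq2 and limma voom called 0 rises as well, and 1 gene rose at an unadjusted p under 0.05. Among them HSPA8, the constitutive HSP70, went from 5059 and 5192 CPM to 4683 and 4652 CPM (-0.14 ± 0.01). Amino acid supply genes driven by ATF4 split into 10 risen (23.8%) and 13 fallen (31%) of 42. SLC7A5, a subunit of the main leucine transporter, fell from 787 and 753 CPM to 577 and 596 CPM (-0.39 ± 0.03). The share of genes called in either direction was 35.3% in the bin of genes with the highest levels.

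In contrast, the genes that mitochondria encode rose in 12 of 13 cases (92.3%), by a median of 0.18, along with the mitochondrial share of counts. MT-CO1, a subunit of cytochrome oxidase, was at 6619 and 6560 CPM with F158E and 7550 and 7466 CPM with ΔIDR (0.19 ± 0.01). Of 79 respiratory chain genes of the nucleus 5 rose (6.33%) and 2 fell (2.53%), with a median of 0.06. Of 78 mitochondrial ribosomal protein genes 2 rose (2.56%) and 6 fell (7.69%). These shares lay below the 9.17% risen and 9.37% fallen of all tested genes. Without F158E replicate 1 or ΔIDR replicate 2, fewer respiratory chain genes rose and fewer mitochondrial ribosomal protein genes fell. The part of RNA quality or handling in the rise of the genes that mitochondria encode was not tested.

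The largest falls among well-expressed genes were in signalling and adhesion genes rather than in one of the lists. GAB2, a docking protein of cytokine receptors (chromosome 11, 78215297 to 78418348), went from 38.0 and 35.3 CPM with F158E to 12.97 and 10.6 CPM with ΔIDR (-1.65 ± 0.12). HGF, a growth factor gene, went from 34.8 and 35.4 CPM to 10.7 and 12.1 CPM (-1.61 ± 0.14). Its level was 19.9 and 16.6 CPM with empty vector and 5.06 and 5.13 CPM in full-length cells, so the F158E libraries had the most of it. PTPN3, a tyrosine phosphatase gene, went from 29.2 and 25.4 CPM to 10.975 and 10.6 CPM (-1.34 ± 0.13), and TP53I11 from 72.2 and 66.7 CPM to 31.9 and 31.5 CPM (-1.13 ± 0.07). For GAB2, PTPN3 and TP53I11 both ΔIDR libraries were below all 6 others. HSPG2, the matrix proteoglycan perlecan, fell by 1.21 ± 0.10 and ATP1B1, a sodium pump subunit, by 1.17 ± 0.13. CYTL1, a secreted cytokine-like protein gene, went from 17.6 and 17.3 CPM to 2.11 and 3.48 CPM (-2.60 ± 0.19). It lies below the level at which genes were named and was named after its values were seen.

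Adhesion and migration genes as a list had 15 that rose (36.6%) and 4 that fell (9.76%) among 41, with a median of 0.23. The share of fallers was near that of all genes, and fewer fell without ΔIDR replicate 1. FERMT3, which activates integrins in blood cells, went from 78.3 and 78.5 CPM to 149 and 154 CPM (0.95 ± 0.05), and THBS1, a secreted matrix glycoprotein, from 249 and 240 CPM to 394 and 389 CPM (0.68 ± 0.03). MMP2, gelatinase A, fell from 10.3 and 7.27 CPM to 3.86 and 1.97 CPM (-1.63 ± 0.21). Corepressor, Polycomb and DNA methylation genes, whose products PML/RARα is known to recruit, had 4 that rose (8.33%) and 13 that fell (27.1%) among 48. Their median was -0.03, the share of risers was near that of all genes, and fewer fell without F158E replicate 1. DNMT3B, a de novo DNA methyltransferase, went from 56.3 and 55.5 CPM to 28.8 and 29.7 CPM (-0.93 ± 0.09), below the empty vector and full-length libraries as well. TET2, which oxidises methylcytosine, rose by 0.39 ± 0.09.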

How the data were processed

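RNA of 8 NB4 libraries, depleted of ribosomal RNA and prepared with the NEBNext Ultra kit per the labels' protocols, was measured as raw gene counts, which the authors deposited for each library without normalization. Builds hg38 and GRCh38 are named in the submitters' processing notes; the aligner, counter and annotation release are not given in the sources used here. Lines for reads outside genes were dropped, which left 87.9% to 88.7% of recorded reads over 60483 identifiers. Symbols came from a table of gene names (56321 identifiers) and from GENCODE release 29, which also gave GRCh38 positions and gene types.

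A quasi-likelihood model (edgeR 4.0.16, R 4.3.3) was fitted to the counts of all 8 libraries, whose 4 groups share 1 estimate of spread, after filterByExpr and TMM scaling. ΔIDR was contrasted with F158E, and Benjamini-Hochberg adjusted p-values under 0.05 were called. The SE given is the size of the log2 fold change divided by the square root of the F statistic of this test. glmTreat tested against a 1.5-fold change. Levels are TMM-scaled CPM. The square root of the common dispersion was 0.0486. Replicates of a mutant differed beyond sampling noise, with chi-square ratios of 3.56 and 3.24 per degree of freedom. The script was tested on simulated data with known changes.

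Named genes were PML and RARA, a panel, the 12 strongest rises and 12 strongest falls of called coding genes at 3 log2 CPM or more whose mutant libraries did not overlap, and, in lists with 3 or more called members, the 3 of lowest adjusted p that moved the way most did and the 1 that moved the opposite way. The members, lists and rule were chosen with earlier results of these data known. Alternatives were DESeq2 1.42.0, limma 3.58.1 voom, 2 scalings, 2 filters, the mutant libraries alone, a replicate block and leaving out each mutant library. Fitted fold changes of genes near 0 counts depend on edgeR's prior count. No protein sequence was used here. Some genes that the rule names are not reported here.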

Additional observations from a re-analysis of the deposited data

How the results depend on the processing

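The count of called genes, 2592 with edgeR over 8 libraries, was 2089 with DESeq2, 2697 with limma voom, 2664 on library totals without TMM, 2609 with upper quartile factors, 2369 without a filter on low counts, 2635 with a filter of 1 CPM in 2 libraries and 2424 with the 4 mutant libraries alone. The 222 genes past 1.5-fold became 208 to 224 under the edgeR alternatives that kept all libraries and 229 with the mutant libraries alone, and each of them that was tested kept its direction in all 12 alternatives (216 of 216 under the 1 CPM filter). Leaving out 1 mutant library gave 1813 to 2018 called genes, 1005 to 1022 higher and 796 to 996 lower. The lower count was 872 without F158E replicate 1 and 796 without ΔIDR replicate 2, while 174 to 188 genes passed the 1.5-fold test. These fits have 1 library in a mutant group, which is assumed to vary like the other groups. CEBPA, which never passed, ranged from -0.0892 without F158E replicate 2 to 0.0276 without F158E replicate 1 (adjusted p = 0.889), and was also positive, at 0.0168, without ΔIDR replicate 2 (adjusted p = 0.938). The cause was not tested. Of the named genes, 24 lost their call in at least 1 alternative, most often NLRC5, INSIG1, ATP5PB, ITGAM and CALR, all with small changes.

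Replicate numbers did not pair the samples: deviations of same-numbered F158E and ΔIDR libraries correlated at -0.0163. With the replicate block 2599 genes were called and 224 passed the 1.5-fold test. Of the named genes, NLRC5 alone lost its call under it, at an adjusted p = 0.0509.

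Depth limits the lowest genes: 101 tested genes had 3 counts or fewer in 1 of the mutants, and called genes in the lowest of 4 equal bins of level had a median change of 2.34 on the log2 scale, against 0.198 in the highest bin.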

Other observations

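Of 34 tested BCL2 family and death receptor genes 12 rose (35.3%) and 1 fell with ΔIDR, against 9.17% and 9.37% of all tested genes, and 6 rose without F158E replicate 2. BCL2, the founding survival factor, was the faller, from 66.9 and 66.5 CPM to 40.6 and 39.9 CPM (-0.73 ± 0.08). MCL1, the survival factor on which granulocytes depend, went from 397 and 401 CPM to 501 and 517 CPM (0.35 ± 0.03), and its relative BCL2A1, an NF-kB target, from 6.17 and 7.58 CPM to 17.5 and 23.2 CPM (1.57 ± 0.18).

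Acute promyelocytic leukemia is known for bleeding and clotting. Of 15 tested coagulation and fibrinolysis genes 5 fell (33.3%) and 3 rose (20%), against 9.37% and 9.17% of all tested genes. The list moved both ways, with a median of 0.09 and 1 gene past 1.5-fold in each direction. THBS1, given above, was among its risers (0.68 ± 0.03). F3, tissue factor, the starter of coagulation, went from 36.9 and 36.9 CPM to 19.2 and 17.4 CPM (-1.02 ± 0.10). ANXA2, the cell surface receptor for plasminogen, went from 56.2 and 51.9 CPM to 38.5 and 36.3 CPM (-0.53 ± 0.08), and SERPINE2, a protease inhibitor, fell by 0.86 ± 0.12. For F3 and ANXA2 both ΔIDR libraries lay below all 6 others. Of 27 iron and heme genes 5 rose (18.5%) and 3 fell (11.1%). The share of fallers was near that of all genes. Fewer rose without F158E replicate 2 and fewer fell without ΔIDR replicate 2. FTL, the ferritin light chain, went from 1542 and 1533 CPM to 2318 and 2326 CPM (0.59 ± 0.02), and ALAS1, the first enzyme of heme synthesis, rose by 0.63 ± 0.04. Glycolysis and hypoxia genes had 11 that rose (26.2%) and 5 that fell (11.9%) among 42, and fewer fell without ΔIDR replicate 2. Among the risers PKM, pyruvate kinase, was at 1352 and 1334 CPM against 1766 and 1797 CPM (0.41 ± 0.02).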
